A study of Mus musculus with 34 samples.

Results

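The 9 genes described here encode proteins that dissolve, start, restrain or anchor blood clots, and they were chosen by name for that role and not by a threshold on their values, with earlier results of these data known. They are Plat and Plau, the plasminogen activators of the tissue and urokinase types, Plaur, the urokinase receptor, Serpine2, an inhibitor of thrombin and of plasminogen activators, F3, tissue factor, Tfpi, the tissue factor pathway inhibitor, Thbd, thrombomodulin, Procr, the endothelial protein C receptor, and Vwf, von Willebrand factor. All 9 were among the 14552 genes of the MI experiment and the 17406 genes of the modRNA experiment, and all 9 passed the filter on low values, a mean of at least 1 CPM (read counts of a gene scaled to a common library size, here by the TMM method), in each. RNA was sequenced from the left ventricle (LV) of CFW mice, an outbred Swiss Webster stock. Hearts were sham or had the left anterior descending artery ligated permanently (MI). In the MI experiment the ischemic area was taken, and in its sham hearts the matching area. The paper does not give the area taken in the modRNA experiment. The MI experiment had 3 sham libraries (D, H and I), 3 libraries 4 h post-MI (C, D and E) and 4 libraries 24 h post-MI (C, D, G and H), and its control mice are called sham operated in the methods but carry a label of no operation. The modRNA experiment had 2 libraries of sham-operated hearts collected at 4 h, and MI hearts injected in the border zone with modified mRNA (modRNA) of firefly luciferase (Luc) or with a modRNA labelled AC. Luc and AC groups held 4 libraries each at 4 h, 3 each at 24 h (A, C and D) and 4 each at 48 h (1 to 4 for Luc, and 1, 2, 4 and 5 for AC). What AC stands for was not given in the sources used here, nor was the age of the mice, and no injected sham group or uninjected MI group was among the 24 libraries. The labels number the sham and 4 h libraries in a common series, the 48 h libraries in another and the 24 h libraries without one, so time and label series cannot be told apart. The titles of the 24 h Luc and AC libraries also carry the letters Br, which no other title has. What Br stands for was not given, so it cannot be told apart from the 24 h time. Each library was taken as a separate heart, and where libraries were not from separate animals the p-values would measure a technical spread.

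A clot forms when tissue factor, exposed by vessel injury, binds factor VII and starts the cascade that ends in thrombin and fibrin. The vessel wall restrains it: TFPI blocks the tissue factor complex, and thrombomodulin turns thrombin into an activator of protein C, which the protein C receptor presents to it. Fibrin is removed by plasmin, made from plasminogen by the tissue-type and urokinase-type activators, the latter concentrated on cells by its receptor. Von Willebrand factor, stored in endothelial cells and platelets, tethers platelets to damaged vessel walls.

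In mm10 coordinates, Plat lies on chr8:22757722-22782848 on the plus strand and Plau on chr14:20836662-20843388 on the plus strand. Plaur lies on chr7:24462483-24475968 and F3 on chr3:121723537-121735052, each on the plus strand. Chromosome 2 carries 3 of the genes, Tfpi on chr2:84432860-84476775 and Thbd on chr2:148404471-148408188 on the minus strand, and Procr on chr2:155751217-155755478 on the plus strand. Serpine2 lies on chr1:79794321-79858665 on the minus strand and Vwf on chr6:125552948-125686679 on the plus strand. The values summarise all reads assigned to a gene, so transcripts of a gene are not separated.

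RefSeq promoter sequences (GRCm38.p6) were at hand for 5 of the 9 genes, Plaur, Procr, F3, Serpine2 and Tfpi. Over the 250 bases before the gene start that the RefSeq promoter table uses, which for Plaur, Procr and F3 is the deposited start given above, 7 motifs were searched on both strands: AP-1 (TGANTCA), the cyclic AMP element (TGACGTCA), NF-kB (GGGNN followed by TTTCC), Egr (GCGGGGGCG), the hypoxia element (ACGTG), STAT (TTCNNNGAA) and the TATA box (TATAAA). Other forms of the NF-kB site were not searched. AP-1 letters, which the Fos and Jun proteins bind, were found before Plaur, Procr and F3, whose RNA levels behaved differently after MI, and their windows are shown for that comparison with motif matches in capitals. The Plaur window is chr7:24462233-24462482, plus strand, and holds Egr letters 109 to 101 bases before the start and AP-1 letters 69 to 63 bases before it.
Plaur: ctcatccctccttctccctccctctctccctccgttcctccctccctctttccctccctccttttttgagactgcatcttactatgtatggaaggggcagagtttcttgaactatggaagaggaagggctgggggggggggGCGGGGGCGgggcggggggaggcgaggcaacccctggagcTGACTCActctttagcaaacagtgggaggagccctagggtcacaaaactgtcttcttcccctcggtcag

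For Procr and F3, 30 bases around the AP-1 letters are given, from chr2:155751051-155751080 and chr3:121723385-121723414, each on the plus strand. The Procr match lies 154 to 148 bases before the start, and F3 has a match 146 to 140 bases and another 135 to 129 bases before it.
Procr: gccccaccccccTGACTCAgcggcgaccta
F3: cgctgtTGAATCAcggtTGAGTCAcccctt

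AP-1 letters were present in 6.75% of 32851 mouse promoter windows of this length. Egr letters, found before Plaur and Serpine2, were present in 2.57% of them, and TATA box letters, found before an upstream start of Tfpi, in 12.4%. The Tfpi match lies 127 to 122 bases before that start, on the strand opposite to the gene. NF-kB letters were present in 1.41%, the cyclic AMP element in 1.55%, STAT letters in 7.02% and the hypoxia element in 16.6% of all windows, and no match to these 4 was found before the 5 genes. The RefSeq gene models of Plaur and Procr begin further upstream, at 24460937 on chromosome 7 and 155751125 on chromosome 2, so the Plaur window lies within the longest Plaur gene model. In the F3 window, 116 bases belong to exons of the GENCODE annotation, and the stretch free of exons begins 134 bases before the start. The first F3 match thus lies in annotated exon sequence and the second begins in it. A match is a string of letters and was not tested for binding.

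Cardiomyocyte markers were high in every library, with 8 genes summing to between 24518 and 90368 CPM, so the tissue was heart muscle as labelled. With the lowest value of a library taken as 1 read, libraries of the MI experiment held between 12553500 and 18952700 reads in the genes listed, and the depth of the modRNA experiment is unknown. No gene was listed at 0 in the MI libraries, so the lowest value may be a floor and not 1 observed read. The paper reports a higher mean number of reads per sample, not limited to the genes listed. The sum of 8 neutrophil markers rose from between 1.98 and 3.57 CPM in sham to between 311 and 1949 CPM 24 h post-MI, and that of 8 monocyte and macrophage markers from between 96.9 and 162 to between 332 and 628 CPM. The cardiomyocyte sum was between 54712 and 58892 CPM in sham and between 24518 and 39657 CPM at 24 h, with library G highest. The sum of 8 fibroblast markers was 1742 to 2243 CPM in sham and 816 to 1637 CPM at 24 h, with 5 called lower, and of 5 smooth muscle markers 2 were called lower and 1 higher. Library G also had the lowest neutrophil sum, 311 CPM against 837 to 1949 CPM in the other three. The sum of 10 endothelial markers, genes of the cell type known for Thbd, Procr, Tfpi and Vwf, lay between 682 and 688 CPM in sham and between 556 and 782 CPM at 24 h. In the modRNA experiment the 24 h Luc libraries were unlike the 24 h MI libraries in these markers, with a neutrophil sum of 47.3 to 95.7 CPM and a cardiomyocyte sum of 72226 to 90368 CPM. The sum of 5 erythroid markers was 435 to 751 CPM 4 h post-MI against 161 to 247 CPM in sham, and 4 of them were called higher. In the modRNA experiment it was 1723 to 10695 CPM in the injected hearts at 4 h against 196 to 647 CPM in sham. The part of blood in the 4 h values was not tested. In such bulk tissue, fewer cells of a type and less RNA per cell cannot be told apart.

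At 4 h post-MI, 2 of the 9 genes rose against sham, Plaur and Plat, in a comparison where 2.37% of the 12487 genes tested were called at an adjusted p below 0.05 and 1.55% were called higher. At 24 h post-MI, 7 rose and none fell: Plaur, Procr, Plau, Thbd, Plat, Serpine2 and Vwf. There 66.0% of all genes tested were called in either direction, and 35.6% were called higher. The median log2 fold change of the 9 genes at 24 h was 1.34, against 0.04 over all genes tested. Between 4 and 24 h post-MI, 6 of the 9 rose, Plaur, Procr, Plau, Thbd, Plat and Serpine2, where 63.9% of all genes tested were called and 37.2% were called higher. F3 and Tfpi, the start of the cascade and its inhibitor, passed the test at neither time.

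**Figure D1:**
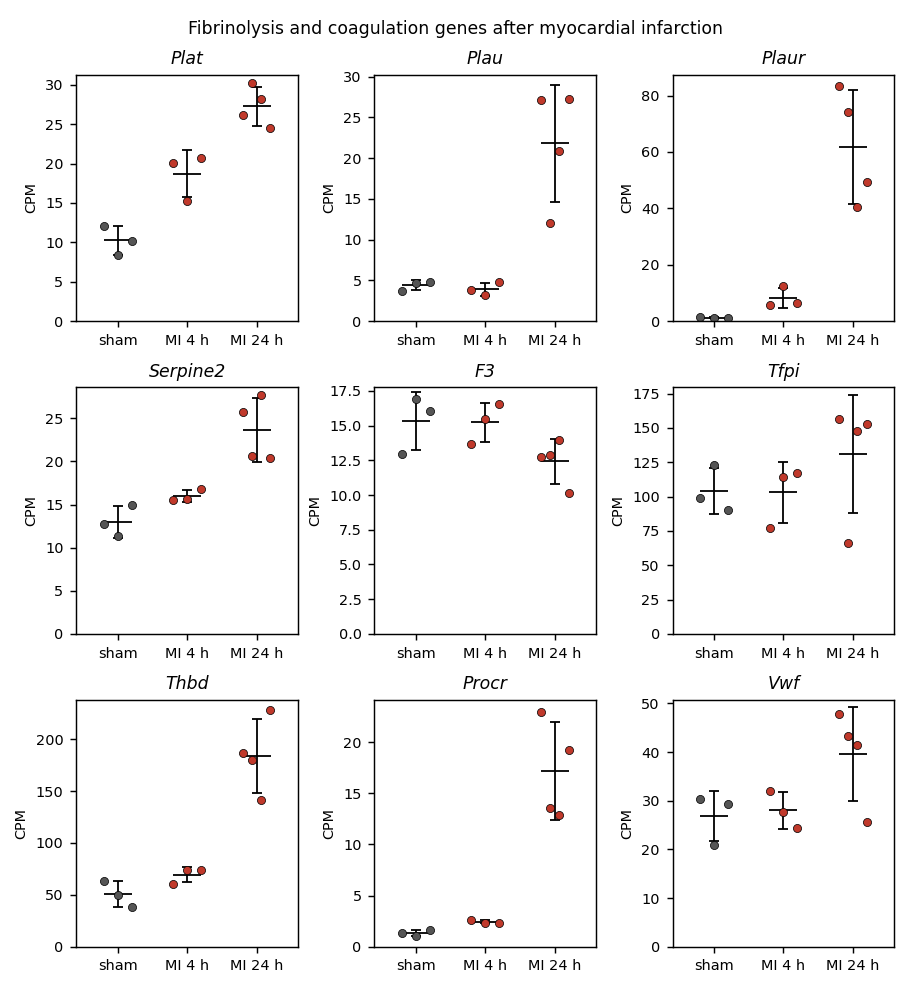
CPM of the 9 genes in each library of the MI experiment, with every library as a point, the group mean as a bar and the SD as whiskers (n = 3, 3 and 4). Plaur reached 40.4 to 83.3 CPM at 24 h from 0.975 to 1.37 CPM in sham, whereas the F3 and Tfpi groups overlapped.

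Plat, the activator that circulates as tPA, was at 12.1, 8.43 and 10.2 CPM in the sham libraries. It was at 20.1, 15.3 and 20.7 CPM 4 h post-MI and at 26.2, 30.2, 28.2 and 24.5 CPM 24 h post-MI. The 3 groups did not overlap, and each later group lay above the earlier. The increase was 1.82-fold ± 0.44 at 4 h (log2 fold change 0.81 ± 0.15 SE, adjusted p = 0.0174) and 2.66-fold ± 0.54 at 24 h (1.34 ± 0.14 SE, adjusted p = 1.03e-05). The 4 h call was lost when MI library C or E, or sham library H or I, was left out. The step from 4 to 24 h, 1.46-fold ± 0.27, also passed the test (adjusted p = 0.00647).

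Plau, the urokinase-type activator, was at 3.70, 4.64 and 4.81 CPM in sham and at 3.80, 3.16 and 4.76 CPM 4 h post-MI, so the groups overlapped. Its 4 h log2 difference from sham was -0.14, with a 95% interval from -0.71 to 0.43. At 24 h it was at 27.2, 12.1, 20.8 and 27.2 CPM, every library above the sham and 4 h libraries. The 24 h increase was 4.98-fold ± 1.8 (log2 2.03 ± 0.24 SE, adjusted p = 2.6e-05). From 4 to 24 h Plau rose 5.59-fold ± 2.2 (adjusted p = 2.04e-05).

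Plaur, the receptor that holds urokinase at the cell surface, had the largest log2 fold change of the 9 genes at each time. It was at 1.37, 1.09 and 0.975 CPM in sham, at 5.6, 12.3 and 6.54 CPM 4 h post-MI, and at 83.3, 74.2, 40.4 and 49.5 CPM 24 h post-MI. The groups did not overlap, and library D was the highest at 4 h and library G the lowest at 24 h. The increase was 7.11-fold ± 3.4 at 4 h (log2 2.03 ± 0.29 SE, adjusted p = 0.00402) and 54-fold ± 20 at 24 h (4.82 ± 0.27 SE, adjusted p = 2.21e-07). Library G, lowest in Plaur, also had the lowest neutrophil marker sum, and the part of neutrophils in the Plaur increase was not tested. Because 1 was added before taking logs, these log2 values understate the change of a gene that sham hearts express at about 1 CPM.

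Serpine2, which inhibits thrombin, urokinase and tPA, was at 12.7, 11.3 and 15 CPM in sham, at 15.5, 15.7 and 16.8 CPM at 4 h and at 25.8, 20.6, 27.7 and 20.4 CPM at 24 h. It did not pass the test at 4 h (log2 0.29 ± 0.14 SE, adjusted p = 0.343), although its groups did not overlap. At 24 h it had risen 1.82-fold ± 0.39 (log2 0.81 ± 0.13 SE, adjusted p = 0.000249).

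F3, tissue factor, was at 13, 16.9 and 16 CPM in sham, at 13.7, 15.5 and 16.5 CPM at 4 h and at 12.7, 12.9, 14.0 and 10.1 CPM at 24 h. The groups overlapped throughout. The log2 difference from sham was -0.0036 at 4 h, with a 95% interval from -0.31 to 0.30, and -0.28 at 24 h, with an interval from -0.57 to 0.01 (adjusted p = 0.0775). It was called lower at 24 h when library G or sham library D was left out, with array weights, and with median-ratio rescaling.

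Tfpi, which blocks the tissue factor complex, was at 99.2, 123 and 90.5 CPM in sham and at 77.2, 114 and 117 CPM at 4 h, with a log2 difference of -0.03 and a 95% interval from -0.68 to 0.62. At 24 h it was at 157, 66.5, 148 and 153 CPM. Library D stood below all the sham libraries and the other three above them. The 24 h log2 difference was 0.26 ± 0.28 SE (adjusted p = 0.424). Without library D it was 0.56 and passed the test (adjusted p = 0.0148), so the lack of a call rested on that library.

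Thbd, thrombomodulin, was at 63.4, 49.5 and 38.5 CPM in sham and at 60.9, 73.8 and 73.6 CPM at 4 h, with overlapping groups and an adjusted p of 0.253. At 24 h it was at 186, 180, 141 and 228 CPM, every library above the highest sham library. The increase at 24 h was 3.64-fold ± 1.1 (log2 1.85 ± 0.18 SE, adjusted p = 5.99e-06). As a ratio to the endothelial marker sum of the same library, Thbd was between 0.0565 and 0.0922 in sham and between 0.181 and 0.41 at 24 h, and these ranges did not overlap. The part of neutrophils, monocytes and macrophages, whose marker sums also rose, in the Thbd increase was not tested.

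Procr, the receptor that presents protein C to the thrombin-thrombomodulin complex, was at 1.37, 1.01 and 1.59 CPM in sham and at 2.63, 2.35 and 2.36 CPM at 4 h. The groups did not overlap, but the 4 h difference (log2 0.57 ± 0.20 SE) had an adjusted p of 0.189. At 24 h Procr was at 23.0, 13.6, 12.8 and 19.3 CPM, 13-fold ± 4.6 above sham (log2 2.94 ± 0.19 SE, adjusted p = 4.26e-07). It was second to Plaur among the 9 in the size of its change. Over the step from 4 to 24 h it rose 7.02-fold ± 2 (adjusted p = 2.4e-06).

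Vwf, a marker of endothelium that binds platelets, was at 30.4, 20.9 and 29.3 CPM in sham, at 31.9, 27.7 and 24.5 CPM at 4 h and at 47.8, 43.3, 41.4 and 25.6 CPM at 24 h. Library H at 24 h lay within the sham range, the other three above it. The 24 h increase was 1.47-fold ± 0.46 (log2 0.52 ± 0.20 SE, adjusted p = 0.04). This call was lost in 8 of 17 alternatives, with adjusted p up to 0.179, and among them when MI library C, D or G of 24 h, MI library D of 4 h or sham library H or I was left out. Of the 10 endothelial markers at 24 h, 3 rose, 3 fell and 4 did not pass the test.

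**Figure D2:**
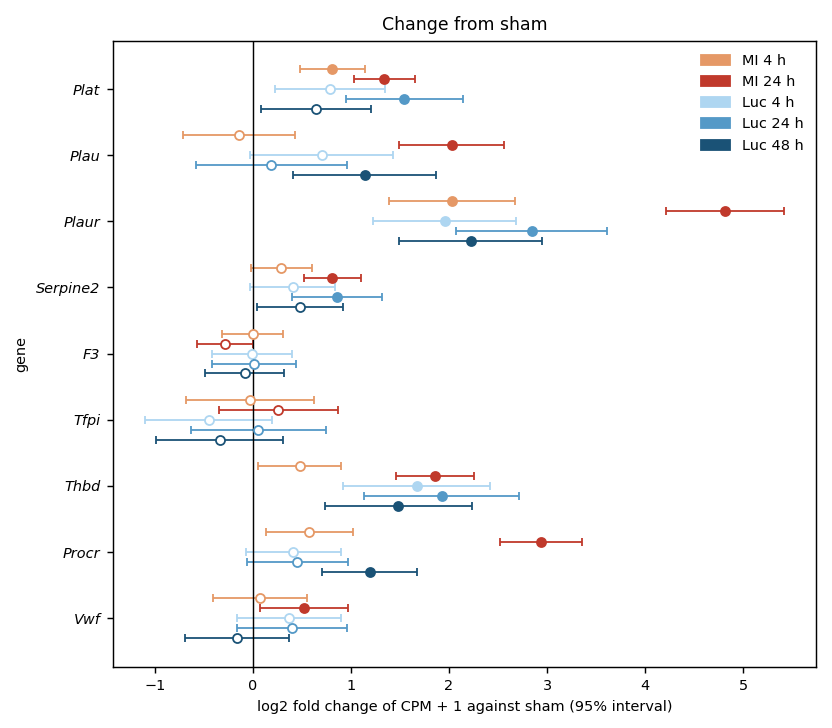
Log2 fold change of CPM + 1 against sham, with its 95% interval, for the 9 genes after MI at 4 and 24 h and after MI with Luc modRNA at 4, 24 and 48 h. Filled points passed an adjusted p of 0.05 and open points did not. The Plaur, Plat and Thbd intervals lie above 0 in all 5 comparisons, and of these genes only Plaur has filled points in all 5. The F3 and Tfpi intervals include 0 in all 5.

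The modRNA experiment gave the same genes a separate set of MI hearts, with Luc modRNA injected and a later time. Its values were normalised apart from those of the MI experiment, so the experiments were not tested against each other. Against its 2 sham libraries, 2 of the 9 genes rose at 4 h in Luc hearts, Plaur and Thbd, where 1.55% of 12555 genes tested were called and 1.25% were called higher. At 24 h, 4 rose, Plaur, Thbd, Plat and Serpine2, where 34.1% of all genes were called and 25.3% were called higher. At 48 h, 4 rose, Plaur, Thbd, Procr and Plau, where 30.1% of all genes were called and 13.7% were called higher. None fell against sham at these times. Comparisons with sham share the same 2 sham libraries, and sham library 1 was decisive at 4 h, where neither gene was called without it.

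**Figure D3:**
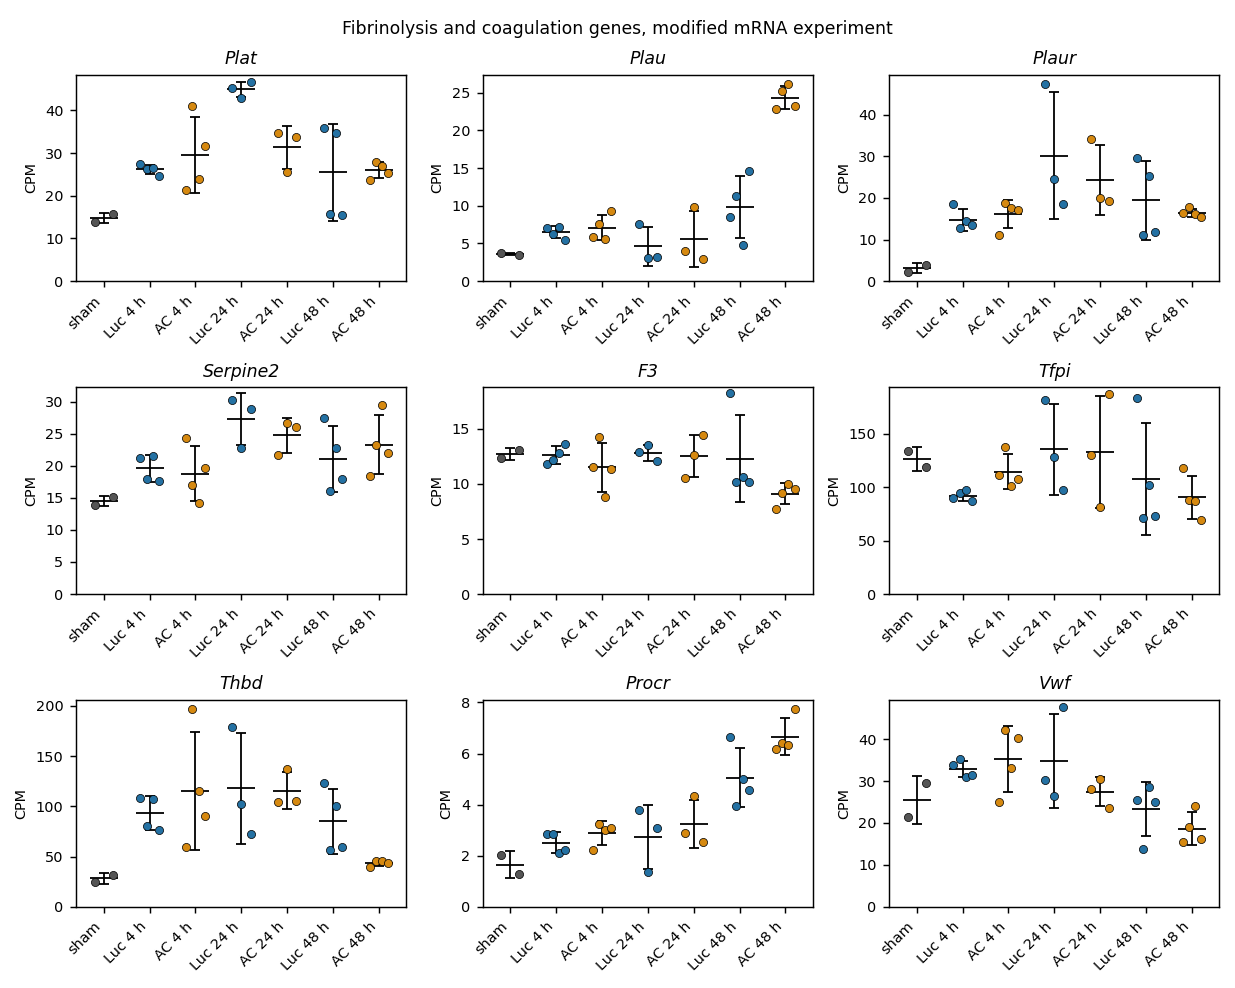
CPM of the 9 genes in each of the 24 libraries of the modRNA experiment, with every library as a point, the group mean as a bar and the SD as whiskers (n = 2 for sham, and 4, 3 and 4 for each modRNA at 4, 24 and 48 h). Plau in the AC hearts at 48 h, 22.9 to 26.2 CPM, lies above every other library shown, and Luc hearts at 48 h are widely spread for Plat and Plaur.

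Plaur was at 2.25 and 3.97 CPM in sham and at 18.5, 12.7, 14.4 and 13.4 CPM in Luc hearts at 4 h. It was at 47.3, 24.4 and 18.5 CPM at 24 h and at 29.7, 11, 25.1 and 11.8 CPM at 48 h. Every Luc library lay above sham, and the increases were 4.74-fold ± 2 (adjusted p = 0.00314), 9.68-fold ± 6.2 (adjusted p = 7.85e-06) and 6.24-fold ± 3.9 (adjusted p = 8.49e-05). Without sham library 1 the 4 h adjusted p was 0.169. The neutrophil marker sum was between 3.08 and 21.4 CPM in sham and between 76.8 and 162 CPM in Luc hearts at 4 h, and its part in the Plaur increase was not tested.

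Thbd was at 24.8 and 32.2 CPM in sham and at 108, 80.6, 107 and 76.6 CPM in Luc hearts at 4 h. It was at 179, 103 and 72.1 CPM at 24 h and at 123, 56.8, 101 and 59.8 CPM at 48 h. All Luc libraries lay above sham, by 3.27-fold ± 0.85 at 4 h (adjusted p = 0.0151), 4.14-fold ± 2.1 at 24 h (adjusted p = 0.000602) and 2.99-fold ± 1.3 at 48 h (adjusted p = 0.00385). Without sham library 1 the adjusted p was 0.308 at 4 h and 0.0636 at 48 h, and without Luc library 1 the 4 h call was also lost. Sham hearts differed in Thbd between the experiments, with 24.8 to 32.2 CPM here and 38.5 to 63.4 CPM in the MI experiment, and that difference was not tested.

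Plat was at 13.9 and 15.6 CPM in sham, at 27.4, 26.2, 26.4 and 24.7 CPM in Luc hearts at 4 h, and at 45.1, 43.0 and 46.6 CPM at 24 h. Neither Luc group overlapped with sham, and the 24 h increase of 3.04-fold ± 0.28 passed the test (adjusted p = 0.000335), while the 4 h difference of 1.77-fold ± 0.17 did not (adjusted p = 0.179). At 48 h Plat was at 35.9, 15.7, 34.8 and 15.6 CPM, and Luc libraries 2 and 4 lay at the level of sham. The 48 h difference from sham had an adjusted p of 0.077.

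Plau was at 3.72 and 3.52 CPM in sham and at 7.09, 6.32, 7.21 and 5.52 CPM in Luc hearts at 4 h (adjusted p = 0.387). It was at 7.59, 3.07 and 3.17 CPM at 24 h, with a log2 difference from sham of 0.19 and a 95% interval from -0.58 to 0.96. At 48 h it was at 8.56, 11.4, 4.84 and 14.6 CPM, every library above sham, an increase of 2.72-fold ± 1.1 (adjusted p = 0.0175). That call was lost without either sham library and when these groups were fitted alone. Procr was at 2.02 and 1.27 CPM in sham, at 3.79, 1.35 and 3.10 CPM in Luc hearts at 24 h and at 6.64, 3.94, 5.01 and 4.59 CPM at 48 h. It rose 3.07-fold ± 1.2 by 48 h (adjusted p = 0.000726) and did not pass the test at 24 h (adjusted p = 0.163).

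Plau and Procr thus passed the test 24 h post-MI in the MI experiment but not in Luc hearts at 24 h, and whether the experiments differ was not tested. The 24 h MI libraries had neutrophil marker sums of 311 to 1949 CPM and monocyte and macrophage sums of 332 to 628 CPM. Luc hearts at 24 h had sums of 47.3 to 95.7 and 99.3 to 135 CPM, and at 48 h, when Plau and Procr passed the test, of 137 to 446 and 194 to 266 CPM. The part of these cells, of the injection, of whatever the Br in the 24 h Luc titles marks, and of the separate processing in the difference was not tested.

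Serpine2 was at 13.9 and 15.1 CPM in sham and at 30.3, 22.7 and 28.9 CPM in Luc hearts at 24 h, a rise of 1.88-fold ± 0.3 (adjusted p = 0.0051, and 0.065 without sham library 1). At 4 h it was at 21.2, 17.9, 21.5 and 17.7 CPM and at 48 h at 27.5, 16.1, 22.7 and 17.9 CPM, and neither difference passed the test (adjusted p = 0.407 and 0.0896). F3 was at 12.3 and 13.1 CPM in sham, between 11.8 and 13.7 CPM in Luc hearts at 4 h, between 12.1 and 13.5 CPM at 24 h, and at 18.2, 10.1, 10.6 and 10.2 CPM at 48 h. Its log2 differences from sham were -0.01, 0.01 and -0.08, with 95% intervals no wider than -0.49 to 0.44. Tfpi ranged from 118 to 134 CPM in sham and from 71.5 to 183 CPM in Luc hearts, Vwf from 21.5 to 29.6 and from 13.9 to 47.6 CPM, and no difference of these genes from sham was called.

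Between Luc groups, Plat and Plaur rose from 4 to 24 h, by 1.71-fold ± 0.1 (adjusted p = 0.0192) and 2.04-fold ± 1.1 (adjusted p = 0.0324), where 32.3% of all genes tested were called and 24.5% were called higher. Rescaling the libraries by median ratios moved the median of all genes by -0.15 in this comparison, and neither gene was called after it. It turned 3079 genes higher and 979 lower into 1971 higher and 1786 lower. The calls of both genes were also lost without Luc library A of 24 h, that of Plat without D of 24 h and that of Plaur without 2, 3 or 4 of 4 h. From 24 to 48 h Plat fell to 0.568-fold ± 0.25 (log2 -0.90 ± 0.24 SE, adjusted p = 0.00504), Plau rose 2.13-fold ± 1.5 (adjusted p = 0.0174) and Procr rose 1.84-fold ± 0.94 (adjusted p = 0.00756), where 41.9% of all genes were called. The median of all genes in this comparison was -0.25 and moved by 0.22 after rescaling, which gave 2000 genes higher and 2086 lower in place of 1170 and 4088. The Plat decrease was called in all 30 alternatives. The Plau increase was lost without Luc library C or D of 24 h or 2 or 4 of 48 h, and the Procr increase without library C of 24 h, and both were lost when these groups were fitted alone.

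Luc hearts at 48 h did not form a tight group. Libraries 1 and 3 were above libraries 2 and 4 for Plat (35.9 and 34.8 against 15.7 and 15.6 CPM) and Plaur (29.7 and 25.1 against 11 and 11.8). The same held for Thbd (123 and 101 against 56.8 and 59.8) and Procr (6.64 and 5.01 against 3.94 and 4.59). It also held for F3 (18.2 and 10.6 against 10.1 and 10.2), Serpine2, Tfpi and Vwf. Libraries 1 and 3 were below 2 and 4 for Plau (8.56 and 4.84 against 11.4 and 14.6 CPM). Endothelial marker sums were 725 and 685 CPM in libraries 1 and 3 and 444 and 582 CPM in 2 and 4, and neutrophil sums were 446 and 212 against 203 and 137 CPM. The labels place these 4 libraries in 1 group, and the split was noticed in the values and not tested. The share of all genes that split this way was not counted, so the split is not shown to be particular to these genes.

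AC modRNA was compared with Luc modRNA at each time. At 4 h and at 24 h none of the 9 genes was called by limma, and none had an unadjusted p below 0.05. In each of these comparisons 1 of 12555 genes was called, or 0.00796%, and 131 and 599 genes had an unadjusted p below 0.05. The 95% intervals of the 4 h differences lay between log2 -0.51 and 0.83, so a 2-fold AC effect on this scale lay outside them for each of the 9 genes. At 24 h, with 3 libraries a group, they were wider, from -1.05 to 0.86. The largest difference at 24 h was that of Plat, at 34.7, 25.6 and 33.7 CPM in AC hearts against 45.1, 43.0 and 46.6 CPM in Luc hearts. These groups did not overlap, but the log2 difference of -0.52 ± 0.26 SE had an adjusted p of 0.991 and an unadjusted p of 0.0558.

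At 48 h, 2 of the 9 genes differed, Plau higher and Thbd lower in AC hearts, where 15.3% of the genes tested were called. Plau was at 22.9, 25.2, 26.2 and 23.3 CPM in AC hearts against 8.56, 11.4, 4.84 and 14.6 CPM in Luc hearts. The groups did not overlap, and the increase of 2.48-fold ± 1.1 (log2 1.31 ± 0.29 SE, adjusted p = 0.00409) was called in all 31 alternatives, with adjusted p up to 0.045. The summed monocyte and macrophage markers lay between 434 and 629 CPM in AC hearts and between 194 and 266 CPM in Luc hearts, 6 of these 8 markers were called higher, and their part in the Plau difference was not tested. The fibroblast sum was also higher, 2183 to 3429 CPM against 1467 to 2030 CPM, with 4 of 8 markers called higher, and 2 of 5 smooth muscle markers were called higher. The cardiomyocyte sum was lower, 28635 to 36909 CPM against 39179 to 54140 CPM, with 3 of 8 markers called lower.

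Thbd was at 40.2, 46.0, 46.1 and 43.3 CPM in AC hearts at 48 h, below the 123, 56.8, 101 and 59.8 CPM of Luc hearts. The decrease to 0.515-fold ± 0.2 (log2 -0.87 ± 0.30 SE) had an adjusted p of 0.0498, and it was lost in 21 of 31 alternatives, with adjusted p up to 0.227. Leaving out Luc library 1 or 3 of 48 h, or any AC library of 48 h, was among them. Endothelial marker sums overlapped, 526.1 to 719 CPM in AC hearts and 444 to 725 CPM in Luc hearts, and none of the 10 markers was called. As a ratio to that sum, Thbd was between 0.0639 and 0.0764 in AC hearts and between 0.103 and 0.17 in Luc hearts.

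Plaur, Plat and Procr at 48 h were tight in AC hearts, with Plaur between 15.3 and 17.8 CPM, Plat between 23.7 and 27.8 CPM and Procr between 6.18 and 7.75 CPM. None differed from Luc by the test (adjusted p = 0.832, 0.732 and 0.216), and the log2 intervals were -0.70 to 0.49 for Plaur, -0.33 to 0.59 for Plat and -0.04 to 0.76 for Procr. F3 was at 7.72 to 10.0 CPM in AC hearts, under the 10.1 to 18.2 CPM of Luc hearts, with an adjusted p of 0.132. The median of all genes in this comparison was 0.14 and moved by -0.13 after rescaling by median ratios, which gave 823 genes higher and 801 lower in place of 1516 and 410, and F3 was then called lower. Whether the AC effect changed with time was tested for each gene as a difference of differences, and none of the 9 passed. For Plau the 48 h effect exceeded the 4 h effect by 1.22 on the log2 scale (adjusted p = 0.101) and the 24 h effect by 1.15 (adjusted p = 0.183).

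**Figure D4:**
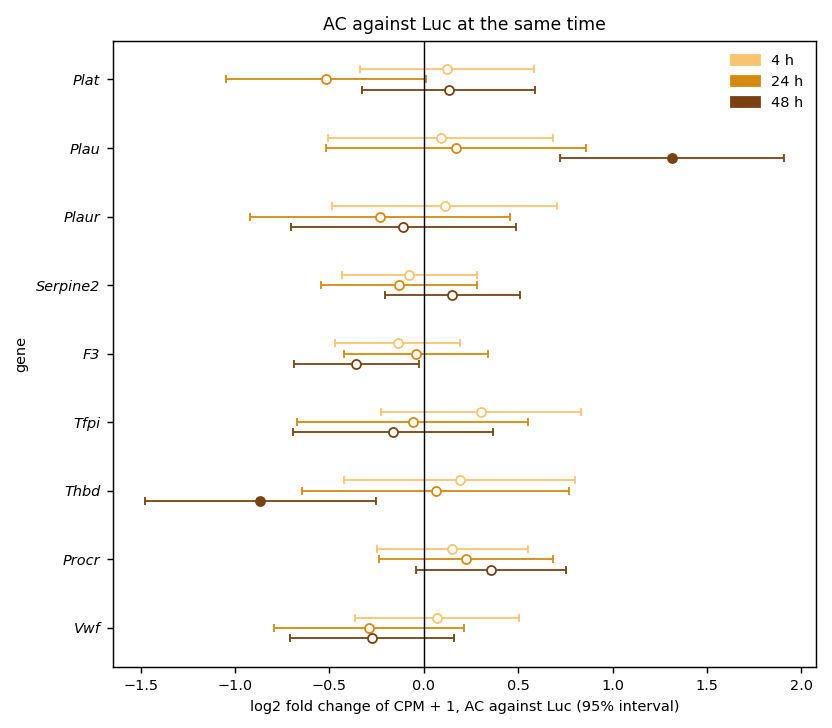
Log2 fold change of CPM + 1 in AC against Luc hearts at 4, 24 and 48 h post-MI, with its 95% interval, for the 9 genes. Filled points passed an adjusted p of 0.05, which only Plau (1.31) and Thbd (-0.87) did, each at 48 h.

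Other genes of the system were taken from 4 lists with 50 genes in all, of which 22 were tested in the MI experiment and 24 in the modRNA experiment. At 4 h post-MI limma called 0 of the 22, with 3 at an unadjusted p below 0.05, where 2.37% of all genes were called. At 24 h 12 rose, 6 fell and 4 did not pass the test, where 66.0% of all genes were called. Of the 7 genes tested for plasminogen activation and its inhibitors, 3 rose and 2 fell at 24 h, with a list median of 0.02 against 0.04 over all genes. The largest increases by the naming rule were those of F10, Serpinb2, Anxa2 and Tfpi2. Anxa2, which with S100a10 binds tPA and plasminogen at the cell surface, rose from between 43.5 and 57.0 CPM to between 334 and 575 CPM (log2 3.10 ± 0.17 SE, adjusted p = 1.69e-07). Serpinb2, which encodes an inhibitor of urokinase, was at 0.0325 to 0.0403 CPM in sham, the lowest value of each library, and at 6.44 to 33.7 CPM at 24 h. F10, coagulation factor X, was at 0.0362 to 0.0975 CPM in sham and at 12.4 to 38.7 CPM at 24 h. Circulating factor X is made in the liver, and these values are of RNA in the LV. Tfpi2, a relative of Tfpi, rose from between 0.682 and 1.08 CPM to between 7.49 and 16.7 CPM (log2 2.59 ± 0.23 SE, adjusted p = 2.87e-06).

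Of the 4 genes tested from the anticoagulant list, 3 rose at 24 h post-MI, Anxa5, Pros1 and Tfpi2, and Gas6 fell. Anxa5, Pros1 and Gas6 were named here after their values were seen. The list was set by gene name, and whether each gene restrains clotting was not tested. Pros1 encodes protein S, the cofactor of activated protein C, and rose from between 17.2 and 18.7 CPM to between 21.8 and 33.5 CPM. Anxa5 rose from between 57.0 and 75.3 to between 113 and 161 CPM, and Gas6 fell from between 84.2 and 92.0 to between 39.1 and 58.8 CPM. Among 5 coagulation factor genes 2 rose, F10 and F13a1, and 2 fell, and among 6 thrombin receptor and platelet adhesion genes 4 rose and 1 fell. These counts stand beside the 66.0% of all genes called in the same comparison. Platelet marker sums were 5.28 to 10.8 CPM in sham and 19.0 to 40.6 CPM at 24 h, and their part in these changes was not tested.

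In Luc hearts limma called 0 of the 24 list genes at 4 h, with 4 at an unadjusted p below 0.05 and 1.55% of all genes called. At 24 h 6 rose and 1 fell, where 34.1% of all genes were called, and at 48 h 7 rose and 3 fell, where 30.1% were. Anxa2 was between 54.0 and 67.1 CPM in sham and between 161 and 252 CPM at 48 h. F10 was between 0.0652 and 0.0952 CPM in sham and between 2.41 and 18.5 CPM at 48 h, and Serpinb2 was listed at 0 in sham and was between 0.664 and 2.95 CPM. Between AC and Luc hearts limma called 0 of the 24 at 4 and at 24 h, with 0 and 4 at an unadjusted p below 0.05, and 6 were higher and none lower at 48 h, where 15.3% of all genes were called, 1516 higher and 410 lower. Of these 6, 3 were from the anticoagulant list, Anxa5, Pros1 and Tfpi2. Anxa5 was at 128 to 139 CPM in AC hearts and 39.0 to 86.9 CPM in Luc hearts.

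Across the 10 libraries of the MI experiment, the genes whose pattern was most like that of Plaur were Sbno2 and Pgm1, with a Pearson r of 0.997 and 0.995 on log2(CPM + 1), and the r over the 24 libraries of the modRNA experiment was 0.924 and 0.908. For Plat they were Sephs2 (0.969, and 0.0509 over the 24) and Adamts4 (0.967 and 0.682), a protease gene with a mean of 1.04 CPM in sham and 179 CPM at 24 h. For Plau they were Tns3 (0.992 and 0.67) and Cdk4 (0.992 and 0.787), and for Procr Eif6 (0.994 and 0.448) and Gm6548 (0.994 and 0.799). For Thbd they were Sec61g (0.996 and -0.13) and Rpl19 (0.995 and 0.0771), and for Vwf Stab1 (0.908 and -0.37) and Piezo1 (0.905 and -0.0882). For Serpine2 they were Smoc1 (0.96 and 0.228) and H19 (0.96 and -0.315), for F3 AW554918 (0.937 and 0.22) and Ehbp1 (0.921 and 0.0743), and for Tfpi Lamp3 (0.928 and 0.0907) and Ppid (0.888 and -0.288). The values over 10 libraries describe 3 groups of hearts, and over the 24 libraries r was at least 0.67 for both genes of Plaur and of Plau and for 1 gene each of Plat and Procr, and near 0 or negative for the others except Eif6, Smoc1 and AW554918. These are correlations across libraries of a few groups and are given as a description. The r of Vwf with the endothelial marker Pecam1 was 0.82 over the 24 libraries and 0.393 over the 10, and with the endothelial marker Cdh5 it was 0.622 and 0.0876. In the same order, the r with Pecam1 was 0.5389 and 0.1045 for Thbd, 0.3864 and 0.1004 for Tfpi, and -0.3004 and 0.2132 for Procr. With Cdh5 it was 0.575 and -0.385 for Thbd, 0.403 and -0.196 for Tfpi, and -0.322 and -0.283 for Procr. Over the 24 libraries Procr thus had a negative r with both markers, unlike Vwf, Thbd and Tfpi.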

How the data were processed

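Poly(A) RNA was sequenced in 34 mouse LV libraries. The authors aligned single reads with STAR to mm10, quantified RefSeq genes in Partek Flow by expectation maximization, which divides reads shared by similar genes among them, and deposited TMM-normalised CPM. This was stated for the MI experiment of 10 libraries and taken to hold for the modRNA experiment of 24, whose values were deposited as CPM plus 1, so 1 was subtracted. Raw counts were not used here. The tables were normalised separately and tested apart.

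Here, log2(CPM + 1) was analysed in limma 3.58.1 (R 4.3.3) for genes averaging 1 CPM or more, with a mean-variance trend, all libraries of an experiment in 1 model and no covariates. Genes were called at a Benjamini-Hochberg adjusted p below 0.05, taken over all genes tested. There were 11 comparisons of groups, and differences of the AC effect between times. Fold changes are ratios of mean CPM, with an SD propagated from both groups. The code was tested on simulated data.

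The 9 genes, the pathway and marker lists and the tests were chosen with earlier results of these data known. Beyond the 9 genes, the text names up to 4 list genes with the largest change per MI comparison among those called without overlap between libraries, and the 2 genes most like each of the 9, and 1 further list gene is not reported here. Alternatives were a pseudocount of 0.1, no filter, the compared groups alone, array weights, no trend, median-ratio rescaling, a replicate block, and leaving out each library in turn. Promoter windows came from RefSeq (GRCm38.p6). Gene coordinates are those deposited, with the end lowered by 1 base.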

Additional observations from a re-analysis of the deposited data

Results flagged for a closer look

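A single library stood apart from its group in 3 of 45 checks of groups of 4 libraries (Dixon's criterion), where chance gives about 1 in 20. Tfpi was at 66.5 CPM in library D 24 h post-MI, against 148 to 157 CPM in the other three. F3 was at 18.2 CPM in Luc library 1 at 48 h, against 10.1 to 10.6 CPM. Procr was at 7.75 CPM in AC library 5 at 48 h, against 6.18 to 6.41 CPM.

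For 6 genes the change from sham differed between 4 and 24 h post-MI in the test of the difference itself. The 24 h change exceeded the 4 h change by log2 2.79 for Plaur (adjusted p = 8.51e-06), 2.36 for Procr (adjusted p = 2.4e-06), 2.17 for Plau (adjusted p = 2.04e-05), 1.38 for Thbd (adjusted p = 6.13e-05), 0.53 for Plat (adjusted p = 0.00647) and 0.52 for Serpine2 (adjusted p = 0.00486). In Luc hearts the 24 h change exceeded the 4 h change by 0.76 for Plat (adjusted p = 0.0192) and 0.89 for Plaur (adjusted p = 0.0324). From 24 to 48 h the change of Plat was -0.90 (adjusted p = 0.00504), of Plau 0.95 (adjusted p = 0.0174) and of Procr 0.73 (adjusted p = 0.00756). Since the changes share their sham libraries, these are the differences between the MI or Luc groups themselves.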

How the results depend on the processing

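Of the 9 genes, the number called moved by over 1.5 times as follows. With array weights it was 5 in place of 2 for MI at 4 h against sham, 4 in place of 2 for Luc 24 h against 4 h, 8 in place of 3 for Luc 48 h against 24 h, and 4 in place of 2 for AC against Luc at 48 h. With the compared groups fitted alone it was 4 in place of 2 for Luc at 4 h against sham and for Luc 24 h against 4 h, and 1 in place of 3 for Luc 48 h against 24 h. With median-ratio rescaling it was 0 in place of 2 for Luc 24 h against 4 h. Of all genes, 3757 were then called in place of 4058, and the groups alone called 5653. For Luc 48 h against 24 h, array weights called 6698 of all genes and the groups alone 3910, in place of 5258. A pseudocount of 0.1, no filter and no trend each left 1 call, Plau, for AC against Luc at 48 h. Leaving out single libraries gave 1 to 2 calls for MI at 4 h, 0 to 2 for Luc at 4 h, 2 to 6 for Luc at 48 h against sham, 0 to 3 for Luc 24 h against 4 h, 2 to 7 for Luc 48 h against 24 h and 1 to 2 for AC against Luc at 48 h. The 7 came without Luc library 1 of 48 h and the 6 without Luc library 2 of 48 h. In the fit with the 6, 3753 of all genes were called in place of 3774. A sham library left alone in the modRNA experiment was assumed to vary like the other groups. No gene called above was called in the opposite direction under these alternatives. The cause of these changes was not tested.

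Over all genes, array weights called 2500 in place of 296 for MI at 4 h, 6147 in place of 4058 for Luc 24 h against 4 h, 2227 in place of 3774 for Luc at 48 h against sham, and 3178 in place of 1926 for AC against Luc at 48 h. The compared groups alone called 705 for MI at 4 h, 596 in place of 194 for Luc at 4 h, 1494 for Luc at 48 h against sham and 1208 for AC against Luc at 48 h. Without single libraries the counts reached 105 and 560 for MI at 4 h, 52 and 325 for Luc at 4 h, and 810 and 2896 for AC against Luc at 48 h. Without sham library 1 they were 1682 in place of 4275 for Luc at 24 h and 2150 for Luc at 48 h. AC against Luc at 4 and 24 h, with 1 gene called each, stayed at 6 or fewer. For Luc 24 h against sham, the all-gene median shifted by -0.17 on rescaling, and 3172 genes higher and 1103 lower became 2296 and 2044.

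Replicate letters or numbers recur between groups but were not shown to pair the libraries. Deviations of same-numbered AC and Luc libraries correlated with r of -0.141 to 0.252 at 4 h, -0.071 to 0.092 at 24 h and -0.206 to 0.197 at 48 h, and at none of these times was every library closest to its own number. In the MI experiment the letter D gave r of 0.125 between MI at 4 h and sham and 0.345 between MI at 24 and 4 h, each the closest match of that library, against -0.0486 between MI at 24 h and sham, and the letters C and H gave 0.0153 and -0.0567. With the replicate block, 0 of the 9 genes were called for MI at 4 h (limma adjusted p = 0.0517 for Plaur and 0.36 for Plat) among 117 genes in all, 7 for MI at 24 h, and 1, Plau, for AC against Luc at 48 h among 172 genes. For Luc against sham the block gave 414 genes at 4 h and 995 at 48 h.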

Other observations

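The modRNA experiment had 2 sham libraries, collected at 4 h, so its 24 and 48 h changes from sham have no sham of their own time. Plaur and Procr, near 1 CPM in sham, rest on few reads there if the lowest value of a library is 1 read. That value was 0.0313 to 0.0479 CPM in the MI experiment. Cleavage and activity of these proteins, and their supply from plasma, are outside what RNA of the LV measures.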
